A study of Arabidopsis thaliana with 24 samples.

Results

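Brassinosteroids are steroid hormones of plants, and the 10 genes described here sense them, relay their signal or inactivate them. They were chosen by name and locus from the 38194 features of the count table: the receptors BRI1 (AT4G39400), BRL1 (AT1G55610) and BRL3 (AT3G13380), the co-receptor BAK1 (AT4G33430), the receptor inhibitor BKI1 (AT5G42750), the kinase BIN2 (AT4G18710), the transcription factors BZR1 (AT1G75080) and BES1 (AT1G19350), and the inactivating cytochrome P450 enzymes BAS1 (AT2G26710) and SOB7 (AT1G17060). All 10 passed the filter on low counts in every comparison.

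As background, brassinosteroid binds BRI1 or its relatives BRL1 and BRL3 at the cell surface, BKI1 leaves the membrane, and BAK1 pairs with the receptor. The signal then shuts off BIN2, a kinase of the GSK3 type that phosphorylates BZR1 and BES1 and keeps them out of action. Freed BZR1 and BES1 bind DNA and change the expression of many genes, among them genes of hormone synthesis and breakdown, so that the pathway feeds back on its own supply.

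RNA came from leaves 1 and 2 of Arabidopsis thaliana Columbia-0 plants grown for 10 d under continuous light. Detached leaves, pooled within a sample, floated for 8 h in a buffer with 5.0% glucose and 0.2% dimethyl sulfoxide, and these were present in every group. The mock groups had nothing more, and the stimulus groups also had 20 µM bikinin, 2.5 µg/mL of the synthetic auxin 2,4-D and 0.5 µg/mL of the cytokinin kinetin. Bikinin inhibits BIN2 and other kinases of its type, so it acts in the middle of the pathway, below the receptors. It was never given alone, and its effects cannot be told apart from those of 2,4-D and kinetin. After the 8 h, 1 mM cordycepin, which blocks the extension of RNA chains, was added to both, and leaves were frozen 0, 15, 60 or 240 min later. This gave 8 groups of 3 libraries, and the labels number the libraries of a group 2, 3 and 4. Nothing states that the numbers are separate plants or days, so p-values measure the spread between these samples, which may be technical.

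Libraries held from 24021278 to 34166478 counts, and 30.7% to 46.9% of these fell on organelle genes. Some libraries stood apart from their labelled time, and whether the labels are right was not tested, so every slope and half-life below holds for the minutes as labelled. A decline index, the mean log2 change of 500 other genes that fell most between 0 and 240 min in stimulus replicate 2, stayed between -0.14 and 0.04 at all 4 times in mock replicate 2. It reached -1.14 by 15 min and -2.08 by 240 min in mock replicate 4, and in mock replicate 3 it went from -1.23 at 60 min back to -0.27 at 240 min. A clock score, evening genes minus morning genes, was above 0 in 9 of the 24 libraries, and these were not spread evenly over the groups. Comparisons at 15, 60 and 240 min and all slopes over time rest on these libraries. The index is relative to the 0 min mean of its own treatment, so it cannot compare the 0 min groups with each other. Among the 0 min libraries, mock replicate 3 had a clock score of 1.76 against -1.27 to -0.59 in the other 5. Of the marker genes, all 5 of leaf mesophyll and all 3 each of phloem and epidermis were at 1 CPM (counts scaled to the library's size) or more in every library, and the 3 seed markers together stayed at or below 0.77 CPM.

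Promoters of the brassinosteroid genes are shown because BZR1 and BES1 are known to bind certain motifs. These are CGTGTG, its variant CGTGCG and the wider motif CANNTG, of which CACGTG is a form. The 250 bases before the start of each gene were read from RefSeq TAIR10.1 and searched on both strands. BZR1 rose, BAS1 rose most and BRI1 fell in the stimulus leaves at 0 min. Their promoters are printed 5′ to 3′ on the gene's own strand, with motif matches in capitals.
BZR1 promoter, chr1:28185254-28185503, plus strand: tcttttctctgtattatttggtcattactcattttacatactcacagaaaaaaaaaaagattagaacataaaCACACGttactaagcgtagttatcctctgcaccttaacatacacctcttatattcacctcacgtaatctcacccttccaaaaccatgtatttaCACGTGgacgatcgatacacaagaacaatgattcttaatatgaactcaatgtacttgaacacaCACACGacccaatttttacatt
BAS1 promoter, chr2:11380213-11380462, plus strand: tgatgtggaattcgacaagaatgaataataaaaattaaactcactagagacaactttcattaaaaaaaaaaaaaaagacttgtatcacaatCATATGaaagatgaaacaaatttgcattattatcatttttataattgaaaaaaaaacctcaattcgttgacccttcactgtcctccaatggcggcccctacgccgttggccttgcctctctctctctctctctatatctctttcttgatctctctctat
BRI1 promoter, chr4:18324207-18324456, plus strand: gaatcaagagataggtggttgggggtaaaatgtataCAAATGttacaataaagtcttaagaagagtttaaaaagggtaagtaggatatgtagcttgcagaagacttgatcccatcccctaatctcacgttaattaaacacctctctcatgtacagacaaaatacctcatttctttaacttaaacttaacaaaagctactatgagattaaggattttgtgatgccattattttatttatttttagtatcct

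The BZR1 promoter held CGTGTG at 2 places, both on the other strand and so printed as CACACG, beginning at -178 and -22, where -1 is the base before the gene start. It also held a CACGTG, beginning at -85. The BAS1 and BRI1 promoters each held only CANNTG, with a match beginning at -159 in BAS1 and at -214 in BRI1. BAK1 held 1 CGTGCG, at -99. Neither CGTGTG nor the variant CGTGCG nor the form CACGTG was found in the other 8 genes' windows. Of 27443 promoters of the same length, 5.37% held CGTGTG and 1.57% held CGTGCG. The form CACGTG was in 6.49% of them, and any CANNTG was in 55.3%. A match is a description of the letters in this window, not a site that was shown to be bound.

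The first question was how the 10 genes stood after 8 h of stimulus, before any time in cordycepin. By edgeR's quasi-likelihood test with an adjusted p under 0.05, 9 of the 10 were called, 4 higher and 5 lower in the stimulus leaves. Most genes of these leaves changed: 56.1% of the 20323 features tested were called, 25.9% higher and 30.1% lower. The count of 9 is read against that background. The median log2 change of the 10 genes was 0.00, and that of all features tested was -0.03. CPM values below are on TMM library sizes.

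**Figure D1:**
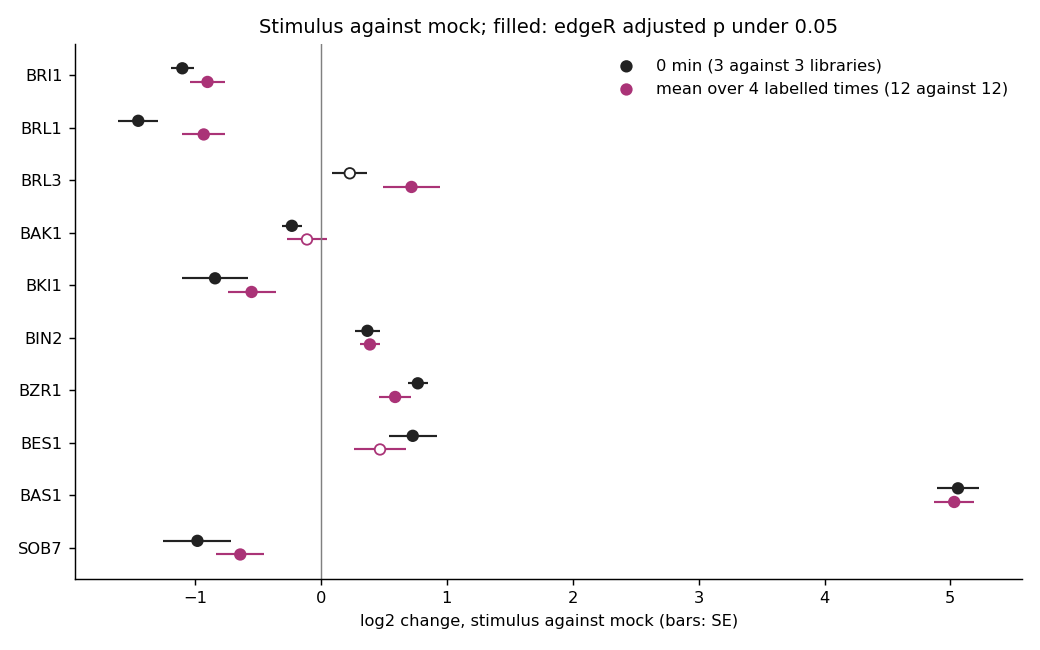
Log2 change of stimulus against mock with its SE for the 10 genes, at 0 min (black) and averaged over the 4 labelled times (purple). Filled points had an edgeR adjusted p under 0.05; BAS1 stands alone at 5.06 and 5.03, and the other 9 genes lie between -1.45 and 0.77.

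Of the 3 receptors, 2 fell. BRI1, the main receptor, was at 46.3, 38.9 and 42.0 CPM in mock replicates 2, 3 and 4, and at 20.8, 21.2 and 19.9 CPM in stimulus replicates 2, 3 and 4. The groups did not overlap, and every stimulus library lay near the same level. The log2 change was -1.10 ± 0.09 (SE), a 2.15-fold fall (edgeR adjusted p 9.06e-06). BRL1, a close relative of BRI1 that also binds the hormone, was at 6.89, 7.33 and 6.34 CPM in mock and 3.24, 2.44 and 2.18 CPM in stimulus. Again the groups did not overlap, and BRL1 fell by 1.45 ± 0.16 on the log2 scale (edgeR adjusted p 7.92e-05), 2.72-fold. BRL3, the other BRI1 relative, was at 7.67, 10.8 and 9.02 CPM in mock and 10.8, 12.6 and 10.2 CPM in stimulus. These ranges overlapped, and the log2 change of 0.23 ± 0.14 was not called (edgeR adjusted p 0.185).

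BAK1, the co-receptor kinase that also serves immune receptors, was at 30.7, 26.5 and 27.5 CPM in mock and 24.9, 25.1 and 25.4 CPM in stimulus. The groups were close but did not overlap, and the log2 change was -0.23 ± 0.08 (edgeR adjusted p 0.0364). BKI1, which holds the receptor back until hormone arrives, was at 3.43, 4.37 and 2.17 CPM in mock and 1.95, 2.27 and 1.57 CPM in stimulus. Its ranges overlapped because mock replicate 4 was low, and it fell by 0.84 ± 0.26 on the log2 scale (edgeR adjusted p 0.0222). The BAK1 call was lost in 11 of 12 alternatives, and among these its direction turned with total counts as library sizes, to 0.03 (adjusted p 0.75), while all features' median moved from -0.03 to 0.23. The BKI1 call was lost with total counts (adjusted p 0.0928), with all 24 libraries in the fit (0.158) and without mock replicate 2 (0.0596), mock replicate 3 (0.0736), stimulus replicate 2 (0.0678) or stimulus replicate 4 (0.0847), and BRL3 was called higher with total counts (0.0273) or without mock replicate 3 (0.0411).

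BIN2, the kinase at the centre of the pathway and a target of bikinin, rose. It was at 58.8, 49.9 and 46.7 CPM in mock and at 69.9, 73.6 and 66.4 CPM in stimulus, and the groups did not overlap. The log2 change was 0.37 ± 0.10 (edgeR adjusted p 0.0102), which is 1.29-fold. BIN2 shares 158 exon bases with AT4G18720 on the same strand, a gene with 7 to 123 counts per library.

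The transcription factors BZR1 and BES1, which BIN2 phosphorylates, rose by similar amounts. BZR1, whose promoter with its CACGTG is shown above, was at 12.8, 12 and 12.4 CPM in mock and 22.0, 23.0 and 21.4 CPM in stimulus. Both groups were tight and well apart, and the log2 change was 0.77 ± 0.08 (edgeR adjusted p 3.66e-05). BES1, its closest relative, was at 66.3, 42.1 and 39.3 CPM in mock and 85.5, 81.2 and 89.8 CPM in stimulus. The groups did not overlap, mock replicate 2 stood above the other mock libraries, and BES1 rose by 0.73 ± 0.19 (edgeR adjusted p 0.0138). The BES1 call was lost without mock replicate 3 (0.63, adjusted p 0.0524) and with all 24 libraries in the fit (0.80, 0.188).

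Some reads of these transcription factors could be shared. Of the 50-base windows of their exons, 1.24% in BZR1 and 0.941% in BES1 recurred elsewhere in the genome. BES1 also overlaps RRA3 on the opposite strand by 818 exon bases, and RRA3 had 519 to 906 counts per library. BZR1 overlaps AT1G75090 on the opposite strand by 361 exon bases, and that gene had 18 to 375 counts. The libraries were stranded, but the strand setting of the counting is not given in the sources used here.

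BAS1 and SOB7, P450 enzymes that inactivate brassinosteroids by oxidation, moved in opposite directions. BAS1 was at 1.61, 1.11 and 1.07 CPM in mock and 42.0, 50.5 and 39.4 CPM in stimulus, from 52, 37 and 36 counts against 1568, 1802 and 1304. The groups were far apart, and the rise of 5.06 ± 0.17 on the log2 scale was 33.3-fold (edgeR adjusted p 2.76e-07). SOB7 was at 2.16, 3.17 and 2.29 CPM in mock and 1.18, 1.85 and 0.998 CPM in stimulus. The groups did not overlap, with stimulus replicate 3 nearest to mock, and SOB7 fell by 0.98 ± 0.27 (edgeR adjusted p 0.0123). The SOB7 call was lost with total counts (-0.72, adjusted p 0.0538), without stimulus replicate 2 (-0.86, 0.0545) and with all 24 libraries in the fit (-0.92, 0.09).

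At 0 min, 8 of the 10 genes had groups that did not overlap in CPM, against 65.3% of all features tested. The calls of 5 genes (BRI1, BRL1, BIN2, BZR1 and BAS1) held in all 12 alternatives tried. Cell type markers also differed between the treatments at 0 min. The 3 phloem markers summed to 50.8 to 75.7 CPM in mock and 114 to 131 CPM in stimulus, with 2 called higher, while the 5 mesophyll markers summed to 9360 to 17300 CPM and 7600 to 9060 CPM, with 4 called lower. The 5 xylem markers summed to 39.5 to 52.8 CPM in mock and 33.3 to 39.5 CPM in stimulus, with 4 called lower, and the 3 epidermis markers to 277 to 342 CPM and 236 to 263 CPM, with 2 called lower. The 3 root markers summed to 3.35 to 11.7 CPM in mock and 0.868 to 1.98 CPM in stimulus, with 1 called lower. Their part in the changes above was not tested, and in whole leaves fewer cells of a type and less RNA per cell cannot be told apart.

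Per kilobase of exon, the order of levels at 0 min was different in the 2 treatments. In mock, BIN2 (median 18.7 CPM per kb) and BES1 (17.3) led and their ranges overlapped, followed by BRI1 (9.60) and BAK1 (9.56), which also overlapped, and BZR1 (6.44). BRL3 (2.00), BKI1 (1.85), BRL1 (1.56) and SOB7 (1.16) came next with overlapping neighbours, and BAS1 (0.503) was last. In stimulus, BES1 (35.1) led, BIN2 (26.2) followed and BAS1 (19.0) came next, ahead of BZR1 (11.4), BAK1 (8.73) and BRI1 (4.75), with no overlap between any of these neighbours. BRL3 (2.39) followed, and BKI1 (1.05), SOB7 (0.596) and BRL1 (0.553) were last, each overlapping its neighbour.

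Other genes of the pathway were taken as lists by role, and their counts at 0 min are read against the 25.9% of all features that rose and the 30.1% that fell. Of 13 co-receptors, receptor-like kinases, phosphatases and related genes tested of 15, 6 rose and 3 fell, with a median of 0.21. SERK1, a relative of BAK1, rose most (1.47 ± 0.09 log2, edgeR adjusted p 2.73e-06), and SERK2, another relative, fell most (-0.79 ± 0.11, 0.000364). Of the 9 other GSK3-like kinases 6 rose and 1 fell, with a median of 0.29. SK41 rose by 0.91 ± 0.07 (edgeR adjusted p 9.88e-06), and SK42 fell by 0.24 ± 0.09 (0.0455), a call lost in 11 of 12 alternatives, among them total counts, where the change was 0.02. The change of BIN2, 0.37, lay within their range.

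Of the 8 other members and partners of the BZR1 family, 2 rose and 6 fell, with a median of -0.69. BEH3, a homologue of BES1, rose by 0.77 ± 0.08 log2 (edgeR adjusted p 3.53e-05), and BEH2, another homologue, fell by 3.94 ± 0.14 (3.18e-07). BZR1 and BES1 rose together, but the homologues did not share a direction. Of 8 tested of 10 helix-loop-helix proteins of brassinosteroid response, 6 rose and 1 fell, with a median of 1.98. BEE1, a factor induced early by brassinosteroid, rose by 4.30 ± 0.13 (edgeR adjusted p 1.92e-07), and IBH1, which opposes growth-promoting factors of this type, fell by 0.92 ± 0.25 (0.0124), a call lost with total counts (0.0558), without mock replicate 4 (0.0577) and with all 24 libraries in the fit (0.0886). Of 4 tested of 5 other enzymes that inactivate brassinosteroids, none rose, and BEN1, a reductase-like protein, fell by 1.57 ± 0.15 (edgeR adjusted p 2.95e-05). At 0 min BAS1 was the one inactivation gene of the 6 tested that was called higher. DOGT1, a glucosyltransferase of brassinosteroids, was at 0.45 ± 0.31 (adjusted p 0.265) then and was called higher over all times (0.82 ± 0.33, 0.0462). Of this list 2 genes were called over all times, DOGT1 higher and BEN1 lower. That number was 0 without mock replicate 2 or with a clock score above 0, and 3 with DESeq2 or without mock replicate 4. The DOGT1 call itself was not followed through the alternatives. At 0 min the median over all features was -0.03.

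**Figure D2:**
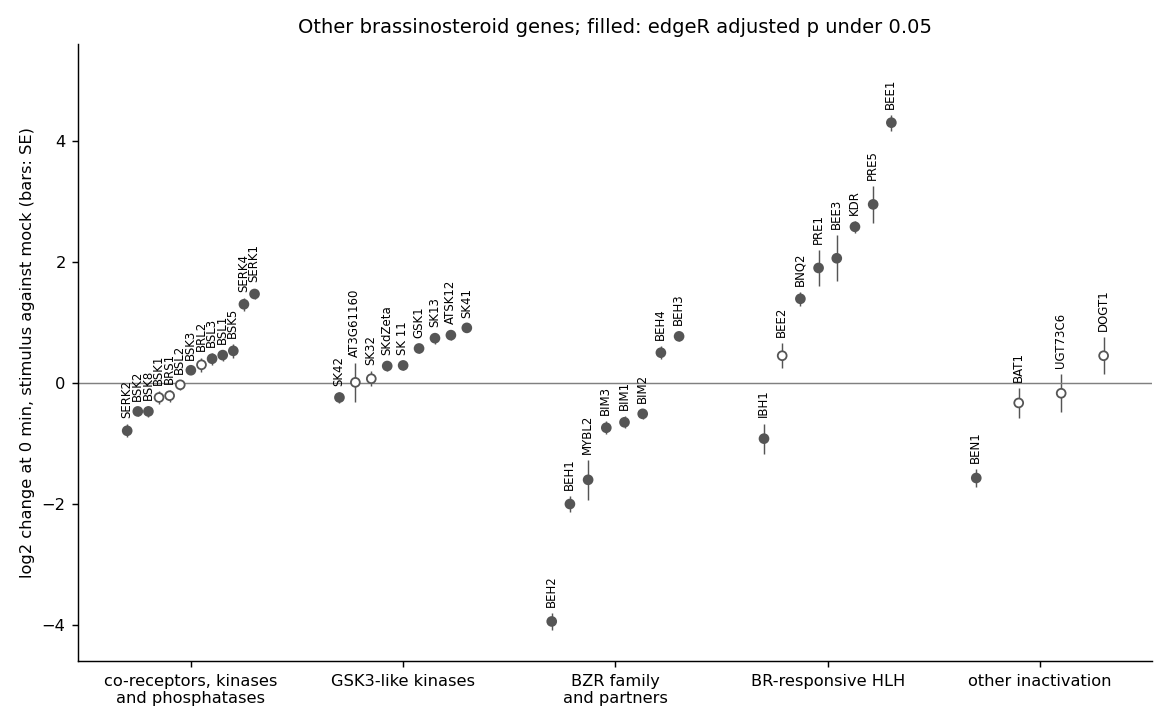
Log2 change at 0 min, stimulus against mock, with its SE, for the other brassinosteroid genes tested, by list and labelled with RefSeq symbols. Filled points had an edgeR adjusted p under 0.05; BEH2 at -3.94 and BEE1 at 4.30 mark the extremes.

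The next question was whether the difference between treatments persisted through the time in cordycepin. Averaged over the 4 labelled times, 12 libraries against 12, 8 of the 10 genes were called, 4 higher and 4 lower, against 51.7% of 22307 features (26.4% higher, 25.3% lower). BRI1 fell by 0.90 ± 0.14 and BRL1 by 0.93 ± 0.17 log2 (edgeR adjusted p 2.7e-05 and 0.00014), and BKI1 by 0.55 ± 0.19 (0.022) and SOB7 by 0.64 ± 0.19 (0.00867). BIN2 rose by 0.39 ± 0.08 (0.000217), BZR1 by 0.59 ± 0.13 (0.000924) and BAS1 by 5.03 ± 0.16 (1.75e-14). BRL3, not called at 0 min, rose by 0.72 ± 0.23 (0.0137). BES1 (0.47 ± 0.21, adjusted p 0.0676) and BAK1 (-0.11 ± 0.16, 0.603) were not called.

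**Figure D3:**
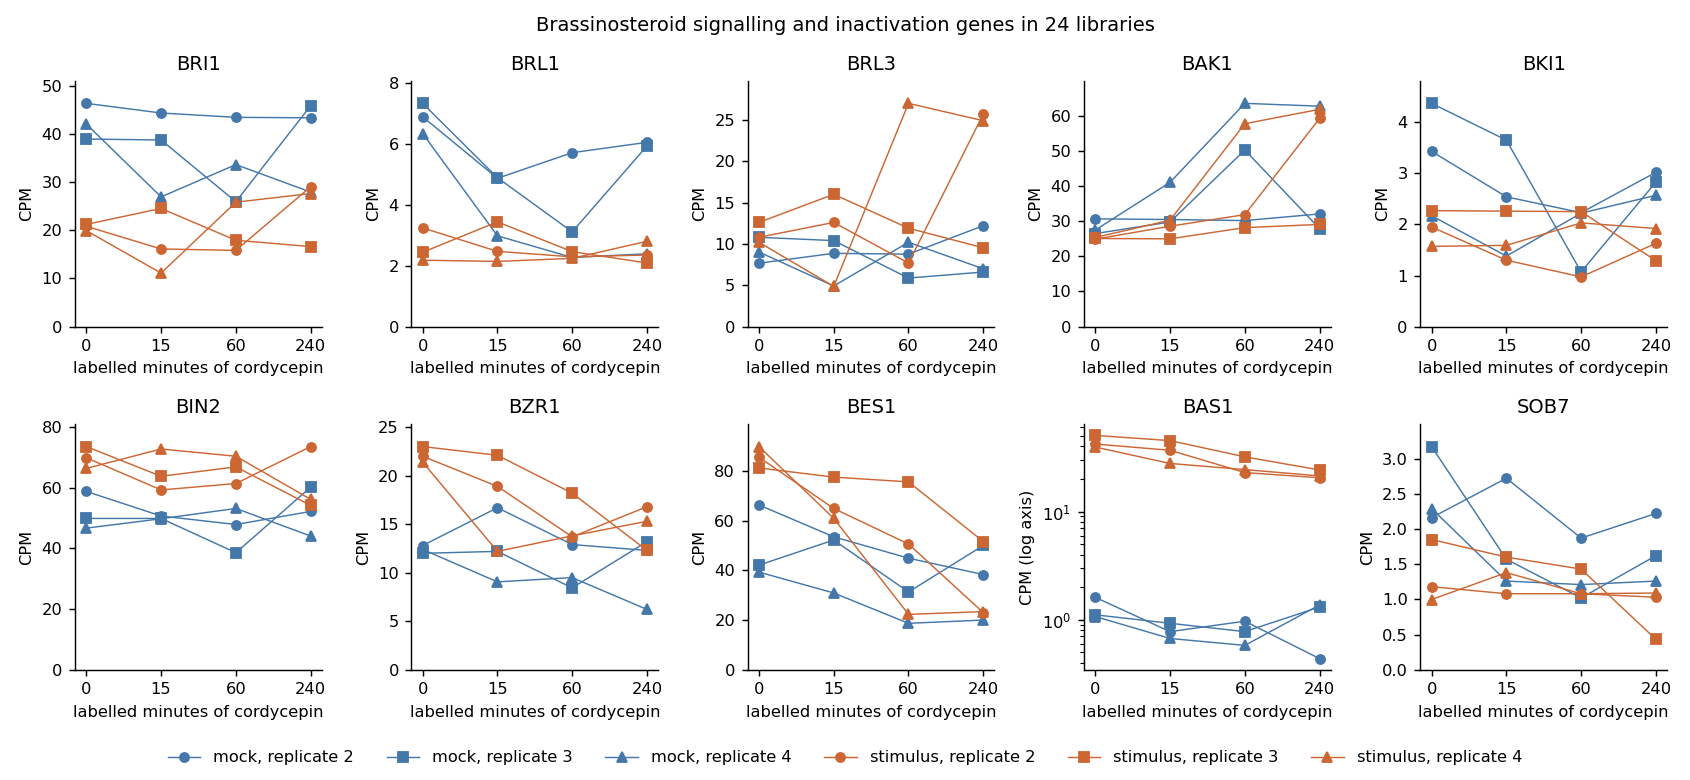
CPM of each gene in all 24 libraries against labelled minutes of cordycepin (spaced evenly), mock in blue and stimulus in orange, with 1 line per replicate number; the BAS1 axis is logarithmic. BAS1 in stimulus, 20.5 to 50.5 CPM, stays above every mock library (0.437 to 1.61 CPM), while the other 9 genes overlap between treatments over all times.

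Over all 24 libraries BAS1 was the one gene of the 10 whose treatments did not overlap, against 10.9% of all features. Mock libraries lay between 0.437 and 1.61 CPM (median 0.948) and stimulus libraries between 20.5 and 50.5 CPM (median 29.9). In the 9 libraries whose clock score was above 0, BAS1 alone kept its call (5.12, edgeR adjusted p 0.000903), and 2855 of all features were called. BZR1 (0.78), BRL3 (0.84) and BIN2 (0.40) changed there by no less than over all libraries, while BRI1 (-0.63), BRL1 (-0.60), BKI1 (-0.32) and SOB7 (-0.46) changed by less. In the libraries at or below 0, 7 genes and 10192 features were called, against 11530 features over all libraries, and BRL3 was not called (0.72, 0.0638). Leaving out 1 series, the 4 libraries of a treatment and number, ended some calls over all times. BRL3 was not called without replicate 3 or 4 of mock (adjusted p 0.052 and 0.0615), BKI1 not without mock replicate 2 (0.116), mock replicate 3 (0.0563) or stimulus replicate 2 (0.123), and SOB7 not without mock replicate 2 (0.099) or stimulus replicate 2 (0.0551). With total counts BKI1 (-0.28, 0.28) and SOB7 (-0.40, 0.146) were not called. BES1 was called without mock replicate 2 (0.67, 0.0323) or stimulus replicate 4 (0.59, 0.034), with total counts (0.74, 0.0262), with DESeq2 (0.46, 0.0459) and with the replicate block (0.49, 0.0142).

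At each of the later times taken alone, BAS1 was the one gene of the 10 called. Its log2 change was 5.49 ± 0.25 at 15 min (edgeR adjusted p 0.000682), 5.08 ± 0.32 at 60 min (0.0022) and 4.41 ± 0.44 at 240 min (0.0036). Fewer features were called at these times than at 0 min, 15.7%, 7.65% and 11.2% of those tested. BRI1 at 15 min was at 44.3, 38.7 and 26.9 CPM in mock and 16.1, 24.5 and 11.1 CPM in stimulus. Its log2 change was -1.11 ± 0.32 (edgeR adjusted p 0.0586). With the replicate number as a block, which takes same-numbered samples as pairs, it was -1.15 ± 0.19 and called (0.0155). With that block 2 of the 10 genes and 5485 rather than 3246 features were called.

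BRL3 varied widely between libraries of the same group. At 240 min it was at 12.2, 6.60 and 6.99 CPM in mock and 25.7, 9.53 and 24.9 CPM in stimulus, and at 60 min it was at 27.0 CPM in stimulus replicate 4 but 7.68 and 11.9 CPM in replicates 2 and 3. The treatments overlapped at both times, and the log2 change at 240 min was 1.19 ± 0.42 (edgeR adjusted p 0.114). The BAS1 call was also tested on 1 side of the clock score at a time: it held at 15 min (5.47, adjusted p 0.042), and was lost at 60 min (4.89, 0.111) and 240 min (4.68, 0.0889) where no feature at all was called.

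The last question was how fast the RNAs declined once cordycepin was present. Slopes were fitted on library sizes scaled to 30 presumed stable transcripts, which rose in share by 0.259, 0.59 and 0.532 log2 units in mock and 0.0798, 0.346 and 0.595 in stimulus at 15, 60 and 240 min. In stimulus, 6 of the 10 genes fell over 0 to 240 min, against 54.9% of 21130 features that fell and 1.09% that rose. BES1 fell fastest, by 0.45 ± 0.10 log2 units per hour (edgeR adjusted p 0.0022), a half-life of 133 min. BAS1 followed with -0.36 ± 0.06 (0.00126, half-life 168 min) and SOB7 with -0.31 ± 0.09 (0.00955, 192 min). BZR1 (-0.25 ± 0.06, adjusted p 0.00387), BIN2 (-0.18 ± 0.03, 0.00155) and BRL1 (-0.17 ± 0.06, 0.029) had half-lives of 243, 340 and 353 min. Half-lives over 0 to 60 min, given below, were shorter for BES1, BAS1, BZR1 and BIN2. With TMM sizes and no scaling to stable transcripts, the slopes of BZR1, BIN2 and BRL1 were -0.11, -0.04 and -0.03 and not called (adjusted p 0.125, 0.333 and 0.672). Nor was SOB7 (-0.17, 0.134), so the half-lives depend on that scaling. BES1 (-0.31, 0.0358) and BAS1 (-0.22, 0.0301) were still called. Within libraries of a clock score above 0 and at or below 0, BES1 (-0.42 and -0.62, adjusted p 0.0125 and 0.0268) and BAS1 (-0.36 and -0.41, 0.00363 and 0.0281) were called on both sides and BZR1 above 0 (-0.29, 0.0149) but not below (-0.23, 0.112). BRL1 (0.229 and 0.167), BIN2 (0.0939 and 0.0796) and SOB7 (0.0935 and 0.16) were called on neither.

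BRI1, BRL3, BAK1 and BKI1 were not called in stimulus, with slopes of -0.05 ± 0.06, 0.07 ± 0.10, 0.09 ± 0.06 and -0.19 ± 0.08 log2 units per hour (edgeR adjusted p 0.538, 0.601, 0.243 and 0.0592). Of these 4 genes, 3 are receptors or the co-receptor, but the receptor BRL1 was called as falling (-0.17, edgeR adjusted p 0.029). Of all features, 54.9% were called as falling and 1.09% as rising. Without the scaling to stable transcripts BAK1 was called as rising, at 0.22 with TMM (adjusted p 0.0371) and 0.17 with total counts (0.0417). Without stimulus replicate 2 none of the 10 genes and no feature at all was called, and the slopes of the 6 were then -0.12 (BRL1) to -0.37 (BES1). Without stimulus replicate 3 the calls of BRL1 (-0.16, adjusted p 0.163) and SOB7 (-0.20, 0.133) were lost.

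In mock leaves no gene of the 10 was called over 0 to 240 min, and by edgeR no feature of the 20812 tested was, although 2671 had an unadjusted p under 0.05 and DESeq2 called 2. No feature was called on either side of the clock score. The slopes of the 10 genes lay between -0.19 (BES1 and SOB7) and -0.01 (BAK1) log2 units per hour. Over 0 to 60 min, 8 of the 10 fell in mock, against 40.6% of 20468 features that fell. SOB7 (-1.39 ± 0.39 log2 units per hour, edgeR adjusted p 0.0239), BKI1 (-1.36 ± 0.43, 0.0318) and BRL1 (-1.32 ± 0.38, 0.0255) fell fastest, and BES1 (-1.20 ± 0.34) and BAS1 (-1.13 ± 0.39) followed. BRL3 (-0.66 ± 0.30, adjusted p 0.0905) and BAK1 (0.18 ± 0.22, 0.515) were not called. In stimulus over the same 60 min, BES1 (-1.09 ± 0.33), BAS1 (-1.06 ± 0.19), BZR1 (-0.83 ± 0.20) and BIN2 (-0.40 ± 0.12) fell, against 17.3% of 20690 features, with edgeR adjusted p from 0.0248 to 0.0476. Their half-lives over these 60 min were 55, 56.7, 72 and 148 min. Those fitted over 0 to 240 min were longer, at 133, 168, 243 and 340 min, so a half-life depends on the minutes fitted. Slopes over 0 to 60 min were not fitted without the scaling to stable transcripts. At 60 min these had risen in share by 0.59 log2 units in mock and 0.346 in stimulus, so the scaling differed between treatments. Without it, BIN2 changed from 0 to 60 min by -0.29, -0.37 and 0.19 log2 units in mock replicates 2, 3 and 4. BRL1 changed by -0.25, -1.12 and -1.31 in the same replicates.

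**Figure D4:**
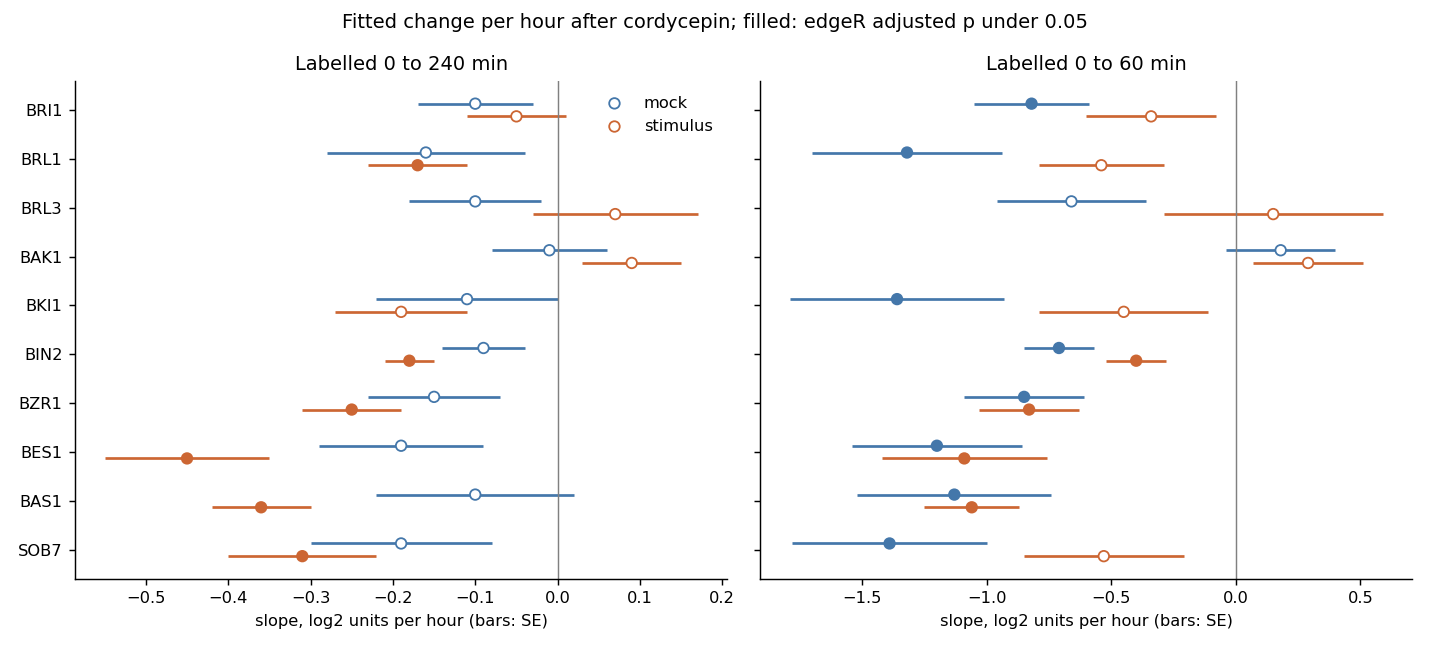
Fitted slopes with their SE in log2 units per hour for mock (blue) and stimulus (orange), over all 4 labelled times (left) and over 0 to 60 min (right; the axes differ). Filled points had an edgeR adjusted p under 0.05: none of the mock slopes and 6 stimulus slopes on the left, 8 mock and 4 stimulus slopes on the right.

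The rate itself was not shown to differ between treatments for any of the 10. The stimulus minus mock difference in slope ran from -0.26 ± 0.14 for BES1 (edgeR adjusted p 0.629) and -0.25 ± 0.12 for BAS1 (0.627) to 0.17 for BRL3. None of the 10 had an unadjusted p under 0.05, and by edgeR no feature of 22006 was called, with 1752 at an unadjusted p under 0.05 and 2 called by DESeq2. Without mock replicate 4, 5391 features and 2 of the 10 genes, BIN2 and BES1, were called, both with the faster fall in stimulus. Over 0 to 60 min the differences for BES1 and BAS1 were 0.11 and 0.09, of opposite sign and not called, and on either side of the clock score no feature was called.

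The levels of BAK1 and BES1 are set beside the decline index of the libraries. In mock replicate 4 BAK1 went from 27.5 CPM at 0 min to 41.1, 63.6 and 62.8 CPM at 15, 60 and 240 min, while BES1 went from 39.3 to 30.9, 18.7 and 20.0 CPM. In mock replicate 2, where the index stayed near 0, BAK1 was at 30.7, 30.5, 30.2 and 32.1 CPM, near its 0 min level, but BES1 went from 66.3 to 53.5, 44.9 and 38.3 CPM. In mock replicate 3 the 60 min library, with the lowest index of that series, had the highest BAK1 (50.3 CPM) and the lowest BES1 (31.3 CPM), and both returned by 240 min to 27.9 and 50.0 CPM. In stimulus replicates 2 and 4, BAK1 went from 24.9 and 25.4 CPM at 0 min to 59.3 and 61.9 CPM at 240 min, where the index was -1.94 and -2.05, and BES1 went from 85.5 and 89.8 to 23.0 and 23.4 CPM. The index genes were chosen by their fall in stimulus replicate 2, so the low index of that replicate at 240 min follows from the choice. In stimulus replicate 3 the index reached -1.15 at 240 min, but BAK1 was at 25.1 CPM at 0 min and 29.1 CPM at 240 min, unlike the 50.3 CPM of mock replicate 3 at -1.23. These are shares of a library, and the BAK1 slope after scaling to stable transcripts was not called.

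**Figure D5:**
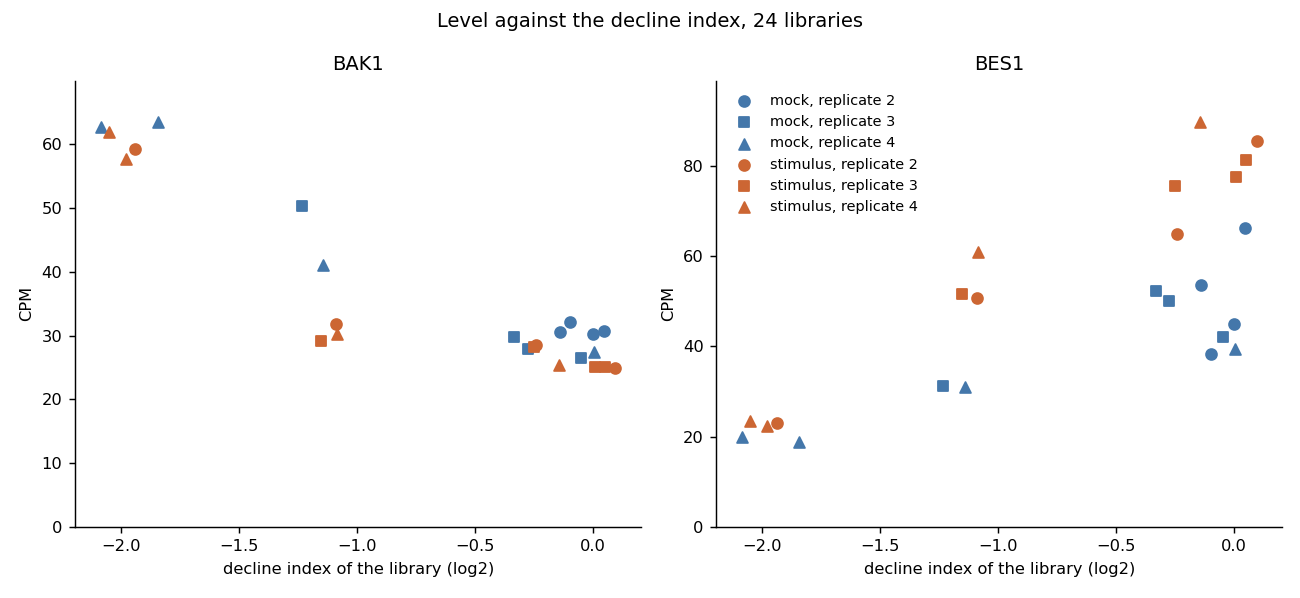
CPM of BAK1 (left) and BES1 (right) against the decline index of each of the 24 libraries (log2), mock in blue, stimulus in orange, marker shape by replicate number. BAK1 is highest, 57.8 to 63.6 CPM, in the libraries near an index of -2, and BES1 is lowest there.

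For each gene the feature most like it in log2 CPM over the 24 libraries, among 10146 candidates, was found as a description. The libraries share treatments and times, and how far a likeness comes from these was not tested. The closest pair was BAS1 with AT2G41130 (Pearson r 0.99, Spearman rho 0.889), but within mock alone their r was 0.311. BES1 was closest to DRT100 (0.965), BAK1 to LARP6a (0.962), BZR1 to CXE5 (0.961) and BRL1 to CIA2 (0.956). For BES1 and BAK1 the likeness held within each treatment, with r of 0.949 and 0.972 for BES1 and 0.973 and 0.983 for BAK1 in mock and stimulus. It was also high for BZR1 (0.953 and 0.916), BRI1 (0.88 and 0.893) and BRL3 (0.844 and 0.936). Within stimulus r was 0.657 for BRL1, 0.665 for SOB7 and 0.437 for BIN2. BRI1 was closest to AT1G76880 (0.933), BRL3 to AT1G74750 (0.918), BIN2 to AT1G77600 (0.87), SOB7 to AT4G16920 (0.859) and BKI1 to XLG1 (0.852).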

How the data were processed

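RNA was measured in 24 libraries of detached leaves by ribosome-depleted, stranded sequencing with single reads, per the labels' protocols. The authors deposited raw counts per annotated feature for each library. TopHat2, Bowtie2 and TAIR10 are named in the submitters' processing notes; their roles, the counting tool, annotation and strand setting are not given in the sources used here. Groups and replicate numbers came from the labels.

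Counts were tested in R 4.3.3 with edgeR 4.0.16 (quasi-likelihood, robust, TMM, filterByExpr, two-sided), adjusted by Benjamini-Hochberg over all features of a comparison and called under 0.05. SE is the log2 change over the root of F. DESeq2 1.42.0 was an alternative. The script was tested on simulated data. Slopes used TMM sizes times the median rise of 30 presumed stable transcripts; a half-life is the time a fitted line takes to fall by 1 log2 unit. CPM used TMM over the 24 libraries, and likeness used log2(CPM + 0.5) for features with a mean of at least 10 CPM. Of 38194 features, 37751 matched RefSeq. Shared reads were sought with 50-base windows of exons. The 10 genes, all gene lists and the rule for named genes (all 10, and per list the called gene with the largest rise and fall at 0 min) were chosen with earlier results of these data known. Alternatives were total counts, median-ratio sizes, no filter, DESeq2, a replicate block, leaving out each library or series, the sides of the clock score (in part chosen after seeing the data) and, for slopes, other scalings and 0 to 60 min.

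Same-numbered libraries of the 2 treatments deviated together at 15 min (correlations 0.232, 0.321 and 0.704). The main fit at 15 min, as at every time, had no replicate block, and the fit that takes the numbers as pairs is given beside it for BRI1. Replicate 2 correlated more (0.468) with another number, and the labels do not state a pairing. At 0, 60 and 240 min at least 1 of the 3 numbers had a negative correlation (-0.104 to -0.018 for 2 of them at 0 min, -0.236 and -0.094 at 60 min, -0.063 at 240 min), so the numbers are not taken as pairs there, although others reached 0.737 at 60 min and 0.595 at 240 min.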

Additional observations from a re-analysis of the deposited data

How the results depend on the processing

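Of the genes called at 0 min, the calls of 5 held in all 12 alternatives, over all times that of 1 in all 13, and for the slopes in stimulus none. With 1 library left out, the number of the 10 genes called ranged from 6 to 8 at 0 min, 1 to 2 at 15 min and 1 to 3 at 240 min. With 1 series of 4 libraries left out it ranged from 6 to 9 over all times, 0 to 6 for the stimulus slopes and 0 to 2 for the difference in slope. It was 5 at 0 min with all 24 libraries in the fit, and 1 over all times with a clock score above 0. At 15 min it was 2 with total counts, with DESeq2 and with the replicate block, at 60 min 2 with total counts, and at 240 min 2 with DESeq2 and with the replicate block (BRL3, edgeR adjusted p 0.0314). Within 1 side of the clock score it was 0 at 60 and at 240 min. Stimulus slopes were called for 3 genes with TMM and no decay factor, and for 3 and 2 within the sides of the clock score; mock slopes for 8 over 0 to 60 min. The cause was not tested.

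Not every direction was followed through the alternatives. At the later times taken alone only BAS1 was, with BRI1 at 15 min and BRL3 at 240 min. The difference in slope was followed for BES1 and BAS1. Mock slopes were followed only over 0 to 60 min. There that of BAK1 was 0.18, against -0.01 over 0 to 240 min, and neither was called. Among the others followed, directions reversed in these cases, none of them called. They were BAK1 with total counts (0.03 at 0 min, 0.19 over all times) and over all times without mock replicate 4 (0.07) or stimulus replicate 3 (0.02); SK42 at 0 min with total counts (0.02); the BRI1 stimulus slope with TMM (0.09), total counts (0.03), without stimulus replicate 3 (0.00) and at a clock score at or below 0 (0.02); the BRL3 stimulus slope without stimulus replicate 4 (-0.01) and at a clock score above 0 (-0.05); and the BES1 (0.11) and BAS1 (0.09) difference over 0 to 60 min. With 1 series left out, BAK1 over all times ranged from -0.30 to 0.07, the BRI1 stimulus slope from -0.10 to 0.00 and that of BRL3 from -0.01 to 0.16.

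Over all features, counts of calls moved by over 1.5 times. Leaving out 1 library gave 928 to 4478 at 15 min, 180 to 1470 at 60 min, 245 to 7752 at 240 min, and leaving out 1 series gave 0 to 11003 for stimulus slopes and 0 to 5391 for the difference. DESeq2 called 4910 at 15, 2873 at 60 and 4069 at 240 min, total counts 4990 at 15 min, and the replicate block 5485 at 15 and 3579 at 240 min. With all 24 libraries in the fit 5209 were called at 0 min, and over all times 2855 with a clock score above 0. At 15 min 84 were called within libraries at or below 0. Stimulus slopes gave 4485 with TMM, 3186 with total counts, 3656 over 0 to 60 min and 4595 and 6336 within the sides, and mock slopes 8373 over 0 to 60 min. With total counts the share of calls that were higher went from 46.2% to 66.9% at 0 min, 43.9% to 76% at 15 min, 36.2% to 71.7% at 60 min, 34.7% to 72.5% at 240 min and 51% to 72.1% over all times, and the median of all features shifted to between 0.23 and 0.43. Of the stimulus slopes called, 1.94% rose, against 35.7% with TMM and 25.2% with total counts. At 0, 60 and 240 min and in the slopes, same-numbered libraries did not deviate together throughout, so the replicate block there rests on a number alone.

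BAS1 in mock had the fewest counts of the 10 genes, 36 to 52 per library at 0 min, and its mock slope carries an SE of 0.12 log2 units per hour.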
